A study of Mus musculus with 15 samples.

Results

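The aminoacyl-tRNA synthetases are the enzymes that join each amino acid to its transfer RNA, and 36 of their genes were followed here in brown preadipocytes treated with fibroblast growth factors (FGFs). The genes were chosen by symbol. They comprised 20 genes whose products work in the cytosol and 16 genes of the mitochondrial enzymes, whose symbols end in 2. All 36 were in the deposited table of 29072 gene symbols, and all 36 were among the 13869 genes that passed the filter on low levels (0.5 RPKM or more in 3 or more libraries, where RPKM are reads per kilobase of transcript scaled to library depth). Each gene stood for its transcript line with the highest mean over the 15 libraries.

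Charged transfer RNAs are what a ribosome reads, so every cell needs a synthetase for each amino acid in the cytosol and another set for the ribosomes inside its mitochondria. Both sets are encoded in the nucleus, mostly by separate genes. Gars and Kars are exceptions, since each gives both the cytosolic and the mitochondrial enzyme for glycine or lysine, and they were counted here as cytosolic. In mammals several cytosolic synthetases sit together in a multisynthetase complex held by scaffold proteins, and many cytosolic synthetase genes are known targets of ATF4, the transcription factor of the amino acid stress response. Brown fat is known for its many mitochondria.

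The cells were preadipocytes from the stromal-vascular fraction of interscapular brown fat of 129SvEv mice, immortalised with the SV40 large T antigen, which all groups therefore carry. The 15 RNA libraries formed 5 groups of 3. In one group FGF8b was combined with BAY-876 at 2 µM, which blocks the glucose transporter GLUT1. The others had FGF9, FGF8b or FGF1 alone, or were control cells. Each FGF was given at 5.56 nM for 48 h, and the series text adds 1 µg/ml heparin to every FGF treatment, although heparin appears in the labels of the FGF9 samples only. Neither source says whether control cells had heparin, and no group had heparin alone or BAY-876 alone. Whether libraries of one group stem from separate cultures is not in the labels, so p-values measure only the spread between these samples, which may be technical.

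The libraries held between 27.01 and 42.6 M reads, and a synthetase had 45 to 33100 reads in a library, with a median of 3157 for cytosolic and 216 for mitochondrial genes. The 7 preadipocyte markers looked for (Pdgfra, Pdgfrb, Cd34, Ly6a, Dlk1, Col1a1 and Thy1) were all detected. Of 5 markers of mature adipocytes only Fabp4 passed the filter, and the summed level of these 5 was 4.99 to 9.27 RPKM in every library. Every change is a log2 fold change ± SE, fitted with limma on log2(RPKM + 0.5), a scale that understates changes of low genes, with p-values adjusted by the Benjamini-Hochberg method over all 13869 genes and a threshold of 0.05. The comparisons of FGF9, FGF8b and FGF1 with control share the same control libraries.

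Sequences around the start of transcription are shown first, because some of the cytosolic genes with large changes, and not others, hold there a short motif known to bind ATF4 together with C/EBP proteins. RefSeq promoter windows (GRCm38.p6, 250 bases before to 50 bases after the start) matched 27 of the 36 genes, 13 cytosolic and 14 mitochondrial. The core of the C/EBP-ATF response element, TGATGNAA on either strand, was in 5 of the 13 cytosolic windows (38.5%), those of Aars, Gars, Iars, Tars and Yars, and in 0 of the 14 mitochondrial ones. The other 8 cytosolic windows, those of Sars, Mars, Eprs, Farsb, Dars, Kars, Qars and Farsa, held no match, although Sars, Mars, Eprs and Farsb changed by 1.95, 1.77, 1.61 and 1.38 with FGF8b. It was in 277 of the 9674 tested genes that had a window (2.86%). Aars held 2 copies. In the following stretches these matches are in capitals, on the coding strand of each gene, where the motif reads either TGATGNAA or its reverse complement TTNCATCA. They lie at chr8:111033670-111033871 for Aars on the plus strand, chr6:55037911-55038018 for Gars on the plus strand, chr13:49682077-49682159 for Iars on the plus strand, chr15:11399629-11399733 for Tars on the minus strand and chr4:129189846-129189932 for Yars on the plus strand.
Aars: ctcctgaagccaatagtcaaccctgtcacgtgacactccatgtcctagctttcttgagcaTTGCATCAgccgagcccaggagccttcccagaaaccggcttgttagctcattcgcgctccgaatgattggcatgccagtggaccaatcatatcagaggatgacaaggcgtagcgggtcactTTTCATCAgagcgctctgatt
Gars: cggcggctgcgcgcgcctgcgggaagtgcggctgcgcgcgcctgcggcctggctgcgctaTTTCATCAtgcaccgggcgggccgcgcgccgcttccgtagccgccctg
Iars: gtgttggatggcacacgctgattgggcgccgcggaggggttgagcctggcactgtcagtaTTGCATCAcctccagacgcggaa
Tars: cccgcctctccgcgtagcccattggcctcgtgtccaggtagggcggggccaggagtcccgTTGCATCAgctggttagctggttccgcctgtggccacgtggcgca
Yars: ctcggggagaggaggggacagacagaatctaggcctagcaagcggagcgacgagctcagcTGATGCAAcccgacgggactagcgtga

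With the first transcribed base as 0, the matches began at -112 and 9 in Aars, -30 in Gars, 7 in Iars, -15 in Tars and 3 in Yars. All but the match at -112 in Aars lay near the start or inside the first transcribed bases. The E-box CACGTG, a motif of MYC and related factors that reads the same on both strands, was in 4 of 13 cytosolic windows (Aars, Farsb, Iars and Tars), in 1 of 14 mitochondrial windows (Ears2) and in 11.9% of the tested genes with a window. The core of the NRF1 motif, GCGCATGC on either strand, was in 0 of 13 cytosolic windows, in 3 of 14 mitochondrial windows (Rars2, Vars2 and Wars2) and in 5.97% of the tested genes with a window. No match of one motif overlapped a match of another. A match is a run of letters and not a shown binding site, and these shares carry no test. Lars, Nars, Hars, Rars, Cars, Vars, Wars, Hars2 and Pars2 had no window in the table.

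The cytosolic set was far more abundant than the mitochondrial set in every group. Over the 20 cytosolic genes, the summed level was 1968 ± 42.5 RPKM in cells with FGF8b plus BAY-876, 2213 ± 94.6 with FGF9, 2173 ± 48.1 with FGF8b, 826 ± 16.3 with FGF1 and 792 ± 3.25 in control (mean ± SD, n = 3 each). Over the 15 mitochondrial genes other than Lars2, it was 113 ± 2.06 RPKM with FGF8b plus BAY-876, 107 ± 0.153 with FGF9, 107 ± 1.40 with FGF8b, 82.7 ± 2.24 with FGF1 and 87.4 ± 4.63 in control. In the cytosolic sum, all libraries with FGF9, FGF8b or FGF8b plus BAY-876 lay above all FGF1 and control libraries. The mitochondrial sum had the same split, over a far narrower range. Lars2 was left out of this sum because its control libraries differed widely among themselves.

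**Figure D1:**
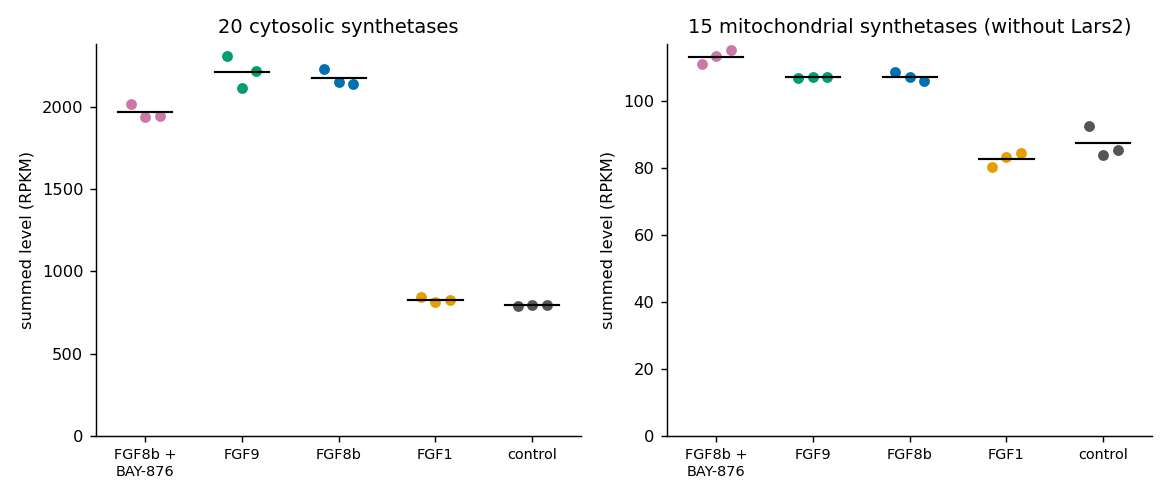
Summed level (RPKM, linear axis from 0) of the 20 cytosolic synthetases (left) and of the 15 mitochondrial synthetases without Lars2 (right) in each library (points), with the group mean as a line. The cytosolic sum averaged 1968 to 2213 RPKM in the 3 groups with FGF8b or FGF9, against 826 RPKM with FGF1 and 792 RPKM in control.

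Nars, the asparaginyl-tRNA synthetase, had the highest mean of the cytosolic genes in all 5 groups, with 288 RPKM with FGF8b plus BAY-876, 369 with FGF9, 367 with FGF8b, 92.4 with FGF1 and 95.5 in control. The transcript lines used differed in length, with 382 bases for Nars and 637 for Sars, against 3463 for Aars and 4850 for Eprs. Ranks and sums over genes therefore depend on the lines chosen. At the low end stood Mars, the methionyl-tRNA synthetase, in control cells (13.4 ± 0.791 RPKM), Wars, the tryptophanyl-tRNA synthetase, in FGF1 cells (11.4 ± 0.535 RPKM), and Farsa, the alpha subunit of the phenylalanyl-tRNA synthetase, in the other 3 groups. Among the mitochondrial genes, Aars2 and Mars2 had the lowest means, 1.54 ± 0.178 RPKM and 1.85 ± 0.0585 RPKM in FGF8b cells. Lars2 had the highest mean in all groups but that with BAY-876, where Iars2 had it.

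Nearly the whole cytosolic set was higher with FGF9 and with FGF8b than in control. Against control, 20 of 20 cytosolic genes rose with FGF9 and 0 fell, with a median log2 change of 1.54, where 38.7% of all tested genes rose, 27.0% fell and the median was 0.09. With FGF8b, 19 of 20 rose and 0 fell, with a median of 1.53, where 37.8% of all tested genes rose, 26.6% fell and the median was 0.08. The exception was Farsa. A rise of at least 1 on the log2 scale was passed by 14 cytosolic genes with FGF9 (5.61% of all tested genes) and by 13 with FGF8b (4.87%). In bulk RNA, a change in the number of cells of a type and a change in RNA per cell cannot be told apart. The summed level of the 7 preadipocyte markers moved as well: it was 427 to 537 RPKM with FGF9 and 444 to 528 RPKM with FGF8b, against 2014 to 2339 RPKM in control. Of the 7 markers 6 fell and 1, Thy1, rose under both FGFs, and their part in these results was not tested. The 5 endothelial markers summed to 0.327 to 0.541 RPKM with FGF9 and 0.404 to 0.565 RPKM with FGF8b. In control they summed to 7.47 to 8.86 RPKM, and none was at 0 in a whole group. Only 3 of the 5 passed the filter, and 2 of these fell under both FGFs, among them Kdr (-3.60 with FGF9 and -3.65 with FGF8b). Vwf did not pass the threshold (0.03 with FGF9 and 0.02 with FGF8b). The part of the endothelial markers was not tested either.

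The 8 cytosolic genes with the largest change under FGF8b charge leucine, isoleucine, serine, asparagine, threonine, methionine, tyrosine and alanine. Lars, the leucyl-tRNA synthetase, also known as a leucine sensor of the mTORC1 pathway, had 150.2, 122 and 137 RPKM with FGF9, 137, 132 and 132 RPKM with FGF8b and 35.3, 36.1 and 36.2 RPKM with FGF1, against 29.7, 29.3 and 30.6 RPKM in control. All FGF9 and FGF8b libraries lay above the highest FGF1 and control values, and the FGF1 libraries lay above control by a smaller step. Its log2 change against control was 2.17 ± 0.06 (adjusted p = 1.29e-13) with FGF9 and 2.14 ± 0.06 (adjusted p = 1.72e-13) with FGF8b, a 4.47-fold mean level under FGF8b. Iars, the isoleucyl-tRNA synthetase, had 100.3, 86.1 and 97.5 RPKM with FGF9, 90.5, 90.7 and 89.6 RPKM with FGF8b and 24.9, 23.4 and 25.8 RPKM with FGF1, against 20.6, 21.1 and 22.2 RPKM in control. Neither FGF8b nor FGF9 overlapped control, and the log2 changes were 2.12 ± 0.06 (adjusted p = 1.26e-13) with FGF9 and 2.06 ± 0.06 (adjusted p = 2.05e-13) with FGF8b. Its promoter stretch above holds a response element match.

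Sars and Nars were the most abundant of these genes. Sars, which charges serine and also begins the making of selenocysteine-tRNA, had 309, 305 and 292 RPKM with FGF9, 311, 305 and 274 RPKM with FGF8b and 75.4, 71.7 and 66.7 RPKM with FGF1, against 77.7, 80.04 and 72.05 RPKM in control. The FGF1 libraries overlapped control, while FGF9 and FGF8b did not, with log2 changes against control of 1.97 ± 0.06 (adjusted p = 2.69e-13) with FGF9 and 1.95 ± 0.06 (adjusted p = 3.51e-13) with FGF8b. Nars had 406, 330.5 and 371 RPKM with FGF9, 382, 366 and 353 RPKM with FGF8b and 102, 85.1 and 89.7 RPKM with FGF1, against 86.2, 96.02 and 104 RPKM in control. It showed the same order, FGF1 overlapping control and FGF9 and FGF8b far above, with log2 changes against control of 1.94 ± 0.09 (adjusted p = 3.51e-11) with FGF9 and 1.94 ± 0.09 (adjusted p = 4.00e-11) with FGF8b.

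Tars, the threonyl-tRNA synthetase, had 127, 126 and 129.5 RPKM with FGF9, 118, 116 and 118 RPKM with FGF8b and 38.2, 37.9 and 37.7 RPKM with FGF1, against 32.2, 32.1 and 32.2 RPKM in control. The 4 groups did not overlap, and the log2 change was 1.97 ± 0.04 (adjusted p = 1.59e-15) with FGF9 and 1.85 ± 0.04 (adjusted p = 3.09e-15) with FGF8b. Mars, whose product charges methionine for initiation and elongation, had 46.3, 49.9 and 48.98 RPKM with FGF9, 47.7, 44.7 and 48.7 RPKM with FGF8b and 17.4, 16.4 and 18.1 RPKM with FGF1, against 14.3, 12.9 and 12.99 RPKM in control. FGF1 lay between control and the other FGFs without overlapping either, and the log2 change was 1.77 ± 0.06 (adjusted p = 7.28e-13) with FGF8b.

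Yars, the tyrosyl-tRNA synthetase, had 94.5, 80.6 and 91.7 RPKM with FGF9, 90.2, 84.4 and 89.7 RPKM with FGF8b and 30.98, 27.7 and 29.4 RPKM with FGF1, against 25.8, 24.9 and 26.9 RPKM in control. Aars, the alanyl-tRNA synthetase, had 152, 157 and 154 RPKM with FGF9, 149, 136 and 144 RPKM with FGF8b and 49.6, 49.3 and 51.8 RPKM with FGF1, against 45.7, 45.9 and 43.7 RPKM in control. For both genes the FGF9 and FGF8b libraries lay above all others, and FGF1 lay just above control. The log2 change under FGF8b was 1.75 ± 0.06 (adjusted p = 1.44e-12) for Yars and 1.65 ± 0.05 (adjusted p = 7.73e-14) for Aars, and under FGF9 it was 1.76 for Yars and 1.76 for Aars. Both carry response element matches in the stretches above, as do Iars and Tars. Gars, the fifth gene with a match, changed by 1.55 ± 0.05 (adjusted p = 6.20e-13) with FGF8b.

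At the other end stood the genes for phenylalanine, glutamine, lysine and histidine. Farsa had 25.4, 24.3 and 27.7 RPKM with FGF9, 21.5, 23.2 and 23.5 RPKM with FGF8b and 18.3, 18.5 and 19.98 RPKM with FGF1, against 21.8, 21.6 and 18.1 RPKM in control. FGF9 lay above control, FGF8b overlapped it, and the log2 change was 0.33 ± 0.08 (adjusted p = 0.00138) with FGF9 and 0.15 ± 0.08 (adjusted p = 0.0978) with FGF8b. Summing all Farsa transcript lines gave 0.22 with FGF8b, past the threshold with an adjusted p of 0.0394, while without control replicate 3 the change was 0.07 (adjusted p = 0.449). Farsb, the beta subunit of the same enzyme, changed by 1.38 ± 0.08 (adjusted p = 6.56e-10) with FGF8b, so the genes of the paired subunits moved by unequal amounts. The changes with FGF8b were 0.19 for Qars, 0.32 for Kars and 0.55 for Hars, which charge glutamine, lysine and histidine, and all 3 rose past the threshold. Qars missed it under trimmed-mean scaling, at 0.11 with FGF8b and 0.10 with FGF9, and when only the groups compared were fitted, and for FGF9 also under median centring. It also missed it without control replicate 3 (0.11 with FGF8b and 0.11 with FGF9), without FGF8b replicate 2 or 3 for FGF8b, and without FGF9 replicate 2 or 3 for FGF9, so 19 cytosolic genes then rose with FGF9 and 18 with FGF8b.

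**Figure D2:**
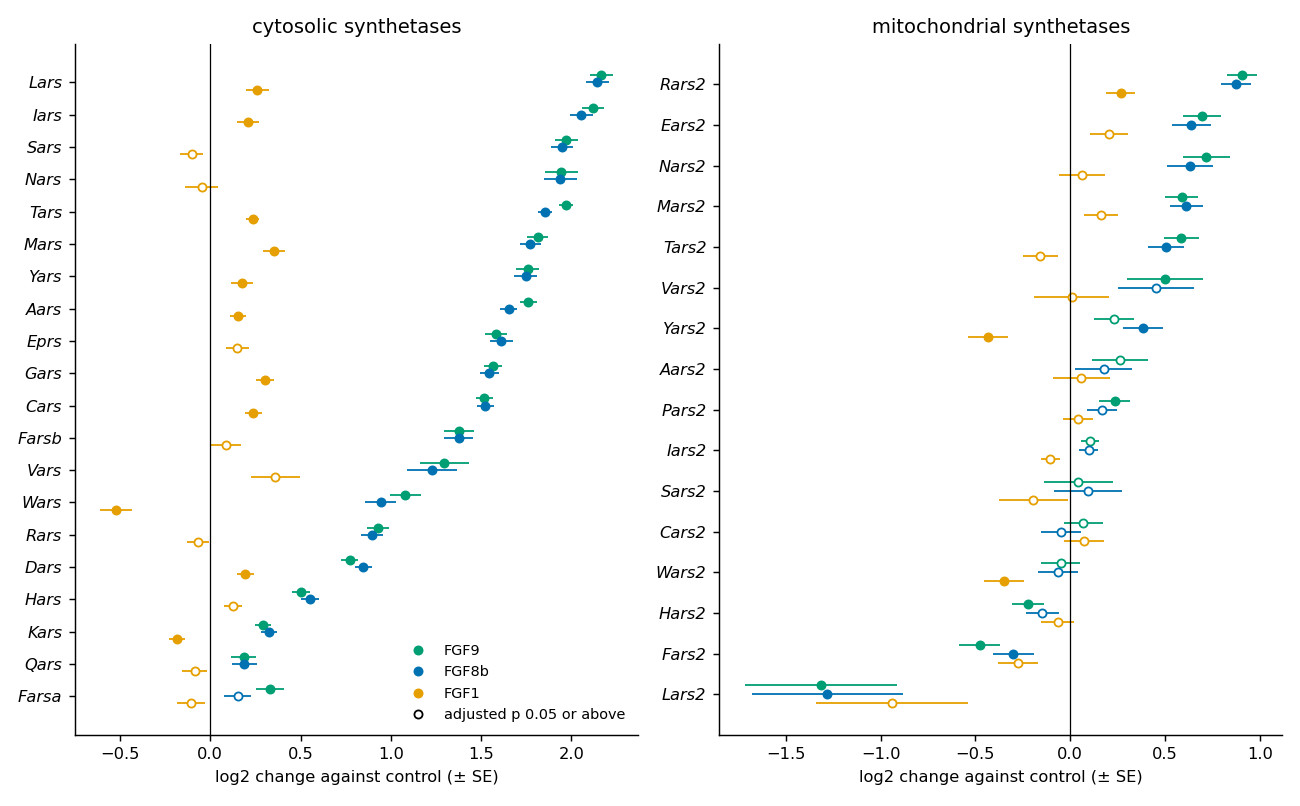
Log2 change against control (horizontal axis, ± SE) of each cytosolic (left) and mitochondrial (right) synthetase under FGF9, FGF8b and FGF1, with open points where the adjusted p was 0.05 or above. Cytosolic changes under FGF8b ran from 0.15 (Farsa) to 2.14 (Lars), and mitochondrial ones from -1.28 (Lars2, whose control libraries differed widely) to 0.87 (Rars2).

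Members of the multisynthetase complex and the cytosolic enzymes outside it both rose. With FGF8b, 8 of 8 genes of complex enzymes rose (Eprs, Iars, Lars, Mars, Qars, Rars, Kars and Dars), with a median log2 change of 1.25 and a range from 0.19 (Qars) to 2.14 (Lars). Of the 12 genes outside the complex, 11 rose, with a median of 1.53 and a range from 0.15 (Farsa) to 1.95 (Sars), beside 37.8% of all tested genes that rose. With FGF9 the medians were 1.26 in the complex and 1.54 outside it. The complex thus held both the largest change and one of the smallest.

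The mitochondrial set moved less and in both directions. With FGF9, 7 of 16 mitochondrial genes rose and 3 fell, with a median log2 change of 0.23. With FGF8b, 6 rose and 2 fell, with a median of 0.17. The shares of risen genes are near the 38.7% (FGF9) and 37.8% (FGF8b) of all tested genes that rose. Of all tested genes, 27.0% fell with FGF9 and 26.6% with FGF8b. 0 of the 16 rose by 1 or more on the log2 scale under FGF9 or FGF8b. That count is near the shares of all tested genes that did so, 5.61% with FGF9 and 4.87% with FGF8b. The count of 2 falls with FGF8b was 1 without FGF8b replicate 2, FGF8b replicate 3 or control replicate 1, each left out in turn. With each library left out in turn, 6 to 8 mitochondrial genes rose and 2 to 3 fell with FGF9. The rises of Pars2 (0.23) and Vars2 (0.50) with FGF9 were lost under trimmed-mean scaling and without FGF9 replicate 2, among other settings. The fall of Hars2 with FGF9 (-0.22) was lost without FGF9 replicate 1 or 2 or control replicate 1 or 3.

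Rars2, the mitochondrial arginyl-tRNA synthetase, rose most. It had 25.7, 23.3 and 23.2 RPKM with FGF9, 23.5, 24.8 and 22.2 RPKM with FGF8b and 14.5, 15.1 and 16.2 RPKM with FGF1, against 12.5, 12.1 and 13.3 RPKM in control. FGF9 and FGF8b lay above FGF1, which lay above control, and the log2 change was 0.91 ± 0.08 (adjusted p = 4.65e-08) with FGF9 and 0.87 ± 0.08 (adjusted p = 7.90e-08) with FGF8b. Ears2, for glutamate, had 2.05, 2.62 and 2.66 RPKM with FGF9, 2.13, 2.37 and 2.45 RPKM with FGF8b and 1.72, 1.34 and 1.72 RPKM with FGF1, against 1.37, 1.25 and 1.303 RPKM in control. FGF9 and FGF8b did not overlap control, and the change was 0.64 ± 0.10 (adjusted p = 4.55e-05) with FGF8b.

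Nars2, for asparagine, had 4.78, 4.01 and 3.61 RPKM with FGF9, 4.24, 3.55 and 3.76 RPKM with FGF8b and 2.28, 2.52 and 2.48 RPKM with FGF1, against 2.02, 2.88 and 2.08 RPKM in control. Mars2, for methionine, had 1.86, 1.66 and 1.94 RPKM with FGF9, 1.92, 1.804 and 1.84 RPKM with FGF8b and 1.12, 1.28 and 1.27 RPKM with FGF1, against 1.05, 1.09 and 0.981 RPKM in control. In both genes all FGF9 and FGF8b libraries lay above control, and the changes with FGF8b were 0.63 ± 0.12 (adjusted p = 2.91e-04) for Nars2 and 0.61 ± 0.09 (adjusted p = 1.71e-05) for Mars2. The other genes that rose with FGF8b were Tars2, for threonine (0.50 with FGF8b), and Yars2, for tyrosine (0.38 with FGF8b). Cars2, for cysteine, had the smallest absolute change with FGF8b. It had 5.67, 6.54 and 5.29 RPKM with FGF9 and 5.198, 5.21 and 5.53 RPKM with FGF8b, against 6.53, 5.45 and 4.701 RPKM in control, and these overlapped (-0.05 ± 0.11, adjusted p = 0.699). Fars2, the mitochondrial phenylalanyl-tRNA synthetase, fell by 0.48 with FGF9 and by 0.30 with FGF8b on the log2 scale (adjusted p = 0.00102 and 0.0227). The call with FGF8b was lost without FGF8b replicate 2 or 3, and without control replicate 1, where the change was -0.20 (adjusted p = 0.128).

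Set side by side by amino acid, the cytosolic gene changed more upward than its mitochondrial counterpart in 17 of 17 pairs with FGF9 and in 17 of 17 with FGF8b. Eprs, a fused glutamyl- and prolyl-tRNA synthetase, was paired with Ears2 and with Pars2, and Fars2 with both subunit genes, so the pairs share genes and carry no test. With FGF8b the difference in log2 change ran from 0.02 for arginine (Rars and Rars2) to 3.42 for leucine (Lars and Lars2), with a median of 1.35. The leucine gap rests on Lars2 at -1.28, whose control libraries differed widely. Without control replicate 2 the change of Lars2 with FGF8b was -0.58. Isoleucine showed a gap of 1.96, with Iars at 2.06 and Iars2 at 0.10, and serine one of 1.85, with Sars at 1.95 and Sars2 at 0.09. With FGF1 the cytosolic change was the larger in 13 of 17 pairs, with a median difference of 0.17. Arginine was the pair in which both genes rose by nearly the same amount, 0.90 for Rars and 0.87 for Rars2 with FGF8b. Over the alternative settings Rars ran from 0.82 to 0.93 and Rars2 from 0.79 to 0.91 with FGF8b, ranges that overlap. The scale understates changes of low genes, so gaps to low mitochondrial genes depend on the setting. Mars2 ran from 0.48 to 0.89 with FGF8b over the alternative settings, and Mars from 1.70 to 1.84.

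**Figure D3:**
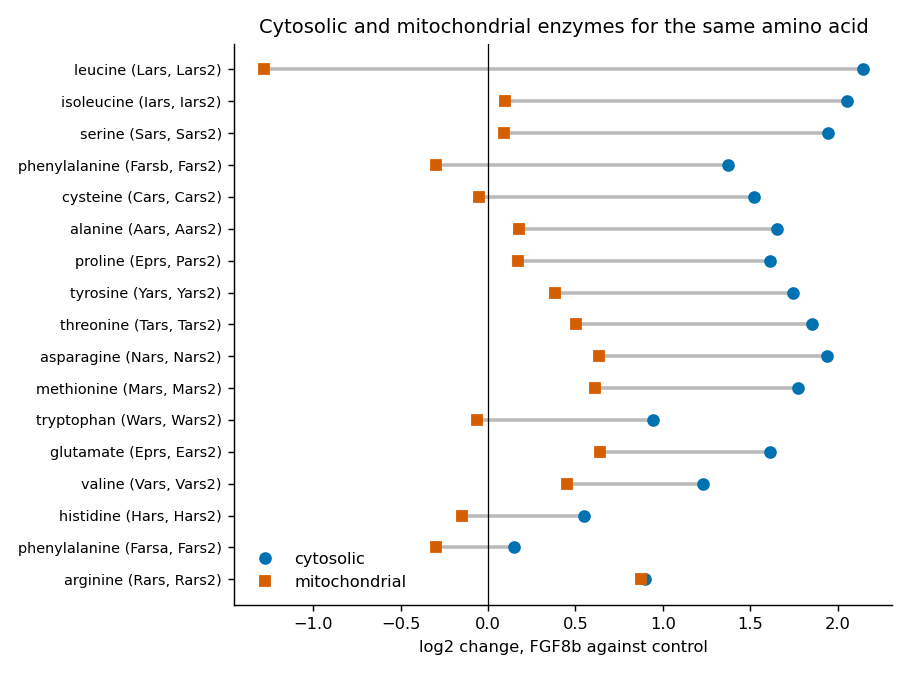
Log2 change with FGF8b against control (horizontal axis) of the cytosolic gene (circles) and the mitochondrial gene (squares) for the same amino acid, ordered by their difference. The circle lies to the right of the square in all 17 pairs, by 3.42 for leucine and by 0.02 for arginine. The leucine value rests on Lars2, whose control libraries differed widely.

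Lars2, the mitochondrial leucyl-tRNA synthetase, fell with FGF9 and FGF8b, but its values rest on uneven libraries. It had 16.7, 17.4 and 19.5 RPKM with FGF8b plus BAY-876, 41.8, 29.8 and 29.9 RPKM with FGF9, 31.1, 40.5 and 31.9 RPKM with FGF8b and 52.6, 39.4 and 39.9 RPKM with FGF1, against 67.97, 221 and 39.1 RPKM in control. The second control library was far above the other 2, and the third lay within the range of the FGF9 and of the FGF8b libraries and just below all FGF1 libraries. The log2 change was -1.32 ± 0.40 (adjusted p = 0.00903) with FGF9, -1.28 ± 0.40 (adjusted p = 0.0111) with FGF8b and -0.94 ± 0.40 (adjusted p = 0.0847) with FGF1. Without control replicate 2 the change was -0.62 with FGF9, -0.58 with FGF8b and -0.24 with FGF1, and without control replicate 3 it was -1.86 with FGF9, -1.83 with FGF8b and -1.48 with FGF1, where FGF1 was also past the threshold (adjusted p = 0.00318).

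Rn18s, the RNA of the small ribosomal subunit, was looked at after these values were seen, and it moved with Lars2. It had 253, 252 and 300.5 RPKM with FGF8b plus BAY-876, 504, 258 and 279.7 RPKM with FGF9, 397, 515 and 349.7 RPKM with FGF8b and 556, 393 and 475 RPKM with FGF1, against 1101, 4170 and 351 RPKM in control. In each of the 5 groups, the library with the highest Lars2 value also had the highest Rn18s value. The table holds 7 transcript lines of Lars2. The 3 most abundant had control means of 109, 96.5 and 96.5 RPKM with SDs of 97.9, 86.0 and 86.0. The next line had 2.36 ± 0.274 RPKM with FGF8b plus BAY-876, 2.11 ± 0.0443 RPKM with FGF9, 1.96 ± 0.0538 RPKM with FGF8b and 2.21 ± 0.0984 RPKM with FGF1, against 2.29 ± 0.134 RPKM in control. The part of ribosomal RNA in the Lars2 values was not tested.

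**Figure D4:**
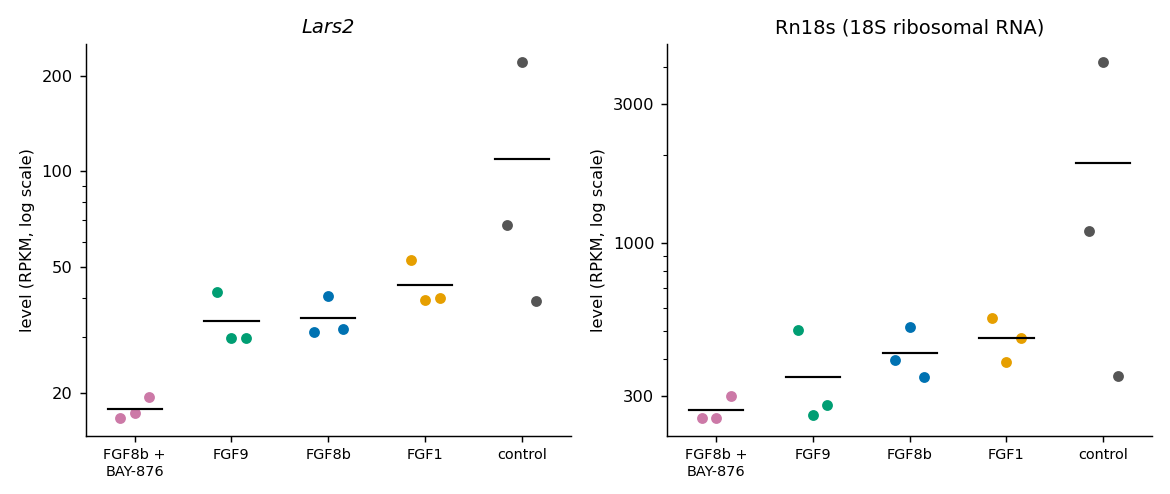
Level (RPKM, log axis) of Lars2 (left) and of the ribosomal RNA Rn18s (right) in each library (points), with the group mean as a line. The second control library is the highest in both, at 221 RPKM for Lars2 and 4170 RPKM for Rn18s.

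With FGF1, given at the same dose and time, fewer synthetases changed and the changes were small. Of the 20 cytosolic genes 9 rose and 2 fell, with a median log2 change of 0.15, where 19.3% of all tested genes rose, 15.1% fell and the median was 0.02. Of the 16 mitochondrial genes 1 rose and 2 fell, with a median of -0.03. Markers moved here too: the preadipocyte sum was 1273 to 1308 RPKM with FGF1, against 2014 to 2339 RPKM in control. Of the 7 preadipocyte markers 2 rose, 3 fell and 2 did not pass the threshold, with a median of 0.09. The endothelial sum was 1.67 to 1.72 RPKM with FGF1, against 7.47 to 8.86 RPKM in control. Of the 3 endothelial markers past the filter 2 fell and 1, Vwf (0.02), did not pass the threshold. The part of these markers was not tested. 0 of the 36 genes both passed the threshold and changed by 1 or more, beside 1.24% of all tested genes that rose and 2.6% that fell by as much. The single mitochondrial rise, Rars2, was absent without FGF1 replicate 3 or control replicate 2, and the count of 2 mitochondrial falls was 1 without control replicate 1.

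Wars fell most among the cytosolic genes. It had 37.6, 35.1 and 34.6 RPKM with FGF9, 38.4, 29.7 and 30.1 RPKM with FGF8b and 10.9, 11.5 and 11.9 RPKM with FGF1, against 16.6, 15.4 and 18.1 RPKM in control. The FGF1 libraries lay below control and the FGF9 and FGF8b libraries above it, with a log2 change of -0.52 ± 0.09 (adjusted p = 2.11e-04) with FGF1 and 0.94 ± 0.09 (adjusted p = 1.17e-07) with FGF8b. Kars also fell with FGF1 (-0.18 ± 0.04, adjusted p = 0.00386). Vars, the valyl-tRNA synthetase, had 38.3, 50.8 and 47.3 RPKM with FGF9, 40.7, 37.6 and 52.3 RPKM with FGF8b and 23.7, 20.7 and 26.01 RPKM with FGF1, against 21.03, 15.1 and 18.7 RPKM in control. FGF1 overlapped control there, and the change of 0.36 ± 0.14 (adjusted p = 0.0522) with FGF1 missed the threshold. Vars passed it in 10 other settings, among them median centring (adjusted p = 0.0408) and without control replicate 1 (0.47, adjusted p = 0.0237), and was at 0.23 without control replicate 2. Aars (0.15) and Yars (0.18) passed it, but Aars missed it under trimmed-mean scaling and Yars under trimmed-mean scaling, median centring and 3 other settings, without changing sign. With 1 library left out, Aars missed it without FGF1 replicate 3 or control replicate 3, and Yars without FGF1 replicate 1 or 3 or control replicate 1 or 2. Without FGF1 replicate 3, 6 cytosolic genes rose. Of the genes past the threshold in the fit used here, Mars had the largest rise, 0.35 ± 0.06 (adjusted p = 2.46e-04) with FGF1, a 1.29-fold mean level.

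Yars2 had 12.5, 10.4 and 14.1 RPKM with FGF9, 13.9, 14.4 and 12.8 RPKM with FGF8b and 7.74, 6.98 and 7.997 RPKM with FGF1, against 11.4, 9.27 and 10.6 RPKM in control. It lay below control in all FGF1 libraries and above it in all FGF8b libraries, with log2 changes of -0.43 ± 0.10 (adjusted p = 0.00436) with FGF1 and 0.38 ± 0.10 (adjusted p = 0.00481) with FGF8b. Wars2, the mitochondrial tryptophanyl-tRNA synthetase, had 4.64, 4.72 and 3.43 RPKM with FGF9, 4.41, 4.31 and 3.86 RPKM with FGF8b and 3.596, 3.32 and 3.11 RPKM with FGF1, against 4.58, 4.04 and 4.58 RPKM in control. It fell with FGF1 (-0.35 ± 0.10, adjusted p = 0.017), while its FGF8b libraries overlapped control. That call was lost without FGF1 replicate 3, control replicate 1 or control replicate 3. The rise of Rars2 with FGF1 (0.27 ± 0.08, adjusted p = 0.0145) came to 0.09 over the sum of its transcript lines and to 0.08 in its RefSeq line, neither past the threshold (adjusted p = 0.453 and 0.521).

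The difference between the FGFs was tested directly, with the mean of FGF9 and FGF8b against FGF1, whose difference does not use the control values, although the control libraries enter the shared spread behind its errors. All 20 cytosolic genes were higher with FGF9 and FGF8b, with a median log2 difference of 1.36, where 36.8% of all tested genes were higher, 28.8% lower and the median was 0.05. The differences ran from 0.27 ± 0.06 (adjusted p = 9.59e-04) for Qars to 2.06 ± 0.05 (adjusted p = 2.48e-14) for Sars, and 13 of the 20 were at least 1, as were 4.17% of all tested genes. Of the mitochondrial genes 9 of 16 were higher and 0 lower, with a median of 0.28 and the largest difference at Yars2 (0.74 ± 0.09, adjusted p = 3.03e-06). Wars, which FGF1 lowered and the other FGFs raised, differed by 1.53 ± 0.08 (adjusted p = 5.77e-11).

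FGF9 against FGF8b gave 0 of 36 synthetases past the threshold in either direction by limma, where 0.202% of all tested genes were higher and 0.0937% lower. By voom on recovered reads it gave 0 of 36 as well, where 49 of all tested genes were higher and 13 lower. By limma at an unadjusted p under 0.05 there were 3, Aars (0.11), Tars (0.12) and Farsa (0.18), all higher with FGF9 and with adjusted p-values of 0.633, 0.431 and 0.653. The 95% intervals of the 20 cytosolic differences lay between -0.222 and 0.357 on the log2 scale, and those of the 15 mitochondrial genes other than Lars2 between -0.435 and 0.471.

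With the GLUT1 inhibitor BAY-876 added to FGF8b, synthetases moved in both directions. Against FGF8b alone, 5 of 20 cytosolic genes rose and 11 fell, with a median log2 change of -0.20, where 22.5% of all tested genes rose, 34.8% fell and the median was -0.08. Of the 16 mitochondrial genes 5 rose and 1 fell, with a median of 0.13. By amino acid, the cytosolic change was the larger in 6 of 17 pairs. The complex held 6 of the 11 falls and 1 rise among its 8 genes, with a median of -0.31, and the 12 cytosolic genes outside it held 5 falls and 4 rises, with a median of -0.07. Against control, 19 of 20 cytosolic genes were higher under FGF8b plus BAY-876, where 36.8% of all tested genes were higher, and 1, Kars, was lower, where 35.9% were lower. Preadipocyte markers moved here too, with a summed level of 164 to 169 RPKM with FGF8b plus BAY-876, against 444 to 528 RPKM with FGF8b. Of the 7 preadipocyte markers 6 fell and 1, Pdgfrb (0.39), rose against FGF8b. The endothelial sum was 1.84 to 2.10 RPKM with FGF8b plus BAY-876, against 0.404 to 0.565 RPKM with FGF8b. Of the 3 endothelial markers past the filter 2 rose and 0 fell against FGF8b, Vwf the most (1.65). Against control Vwf was higher (1.67) and the other 2 were lower. The part of both marker lists was not tested.

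Wars and Rars rose on top of FGF8b. Wars, known in human cells as an interferon-inducible synthetase, had 58.6, 62.99 and 61.05 RPKM with FGF8b plus BAY-876, against 38.4, 29.7 and 30.1 RPKM with FGF8b and 16.6, 15.4 and 18.1 RPKM in control. The 3 groups did not overlap, and the log2 change against FGF8b was 0.89 ± 0.09 (adjusted p = 4.13e-07), a 1.86-fold mean level. Rars, the arginyl-tRNA synthetase of the complex, had 179, 168 and 162 RPKM with FGF8b plus BAY-876, against 97.04, 95.2 and 94.5 RPKM with FGF8b and 49.7, 50.5 and 53.2 RPKM in control. These groups did not overlap either, with a log2 change of 0.83 ± 0.06 (adjusted p = 1.40e-08) against FGF8b. Computed from group means on the same scale in place of the fit, all 10 transcript lines of Rars gave 0.81 to 0.85 and all 10 of Wars 0.82 to 0.88. The other cytosolic rises were Farsa (0.41), Farsb (0.27) and Cars, for cysteine (0.18).

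Kars had the largest fall. It had 63.7, 62.3 and 64.5 RPKM with FGF8b plus BAY-876, against 98.02, 95.2 and 94.1 RPKM with FGF8b and 77.8, 79.1 and 72.4 RPKM in control. The inhibitor group lay below both others, and the log2 change was -0.59 ± 0.04 (adjusted p = 2.11e-08) against FGF8b and -0.26 ± 0.04 (adjusted p = 5.64e-05) against control. Lars fell to 102, 92.4 and 100.2 RPKM with FGF8b plus BAY-876, against 137, 132 and 132 RPKM with FGF8b (-0.44 ± 0.06, adjusted p = 2.33e-05), and stayed far above control. Log2 changes of -0.43 were seen for Eprs, -0.39 for Mars, -0.38 for Yars, -0.36 for Tars, -0.35 for Nars, -0.32 for Hars, -0.27 for Sars, -0.22 for Dars and -0.17 for Iars. The change of Iars (adjusted p = 0.0283) missed the threshold under trimmed-mean scaling and median centring, and without any 1 of the FGF8b libraries or FGF8b plus BAY-876 replicates 2 or 3. Aars, Gars, Qars and Vars did not pass the threshold in either direction.

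In the mitochondrial set, Rars2 moved opposite to Rars. It had 12.6, 14.96 and 12.3 RPKM with FGF8b plus BAY-876, against 23.5, 24.8 and 22.2 RPKM with FGF8b and 12.5, 12.1 and 13.3 RPKM in control. All inhibitor libraries lay below FGF8b and overlapped control, with a log2 change of -0.80 ± 0.08 (adjusted p = 3.84e-07) against FGF8b. Computed from group means, the 7 more abundant of its 10 transcript lines gave -0.98 to -0.80. Iars2, the mitochondrial isoleucyl-tRNA synthetase, had 26.5, 25.8 and 26.3 RPKM with FGF8b plus BAY-876, against 17.8, 17.7 and 17.97 RPKM with FGF8b and 17.3, 16.6 and 16.1 RPKM in control. Its inhibitor libraries lay above all others, with a log2 change of 0.54 ± 0.05 (adjusted p = 2.11e-07) against FGF8b. The other rises were Tars2 (0.44), Cars2 (0.35), Mars2 (0.34) and Wars2 (0.30), the last of which was lost without FGF8b replicate 3 or FGF8b plus BAY-876 replicate 3. Lars2 differed by -0.92 ± 0.40 (adjusted p = 0.0605), which was past the threshold without control replicate 2 (adjusted p = 0.000679) or control replicate 3 (adjusted p = 0.0151), so the count of falls was then 2.

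**Figure D5:**
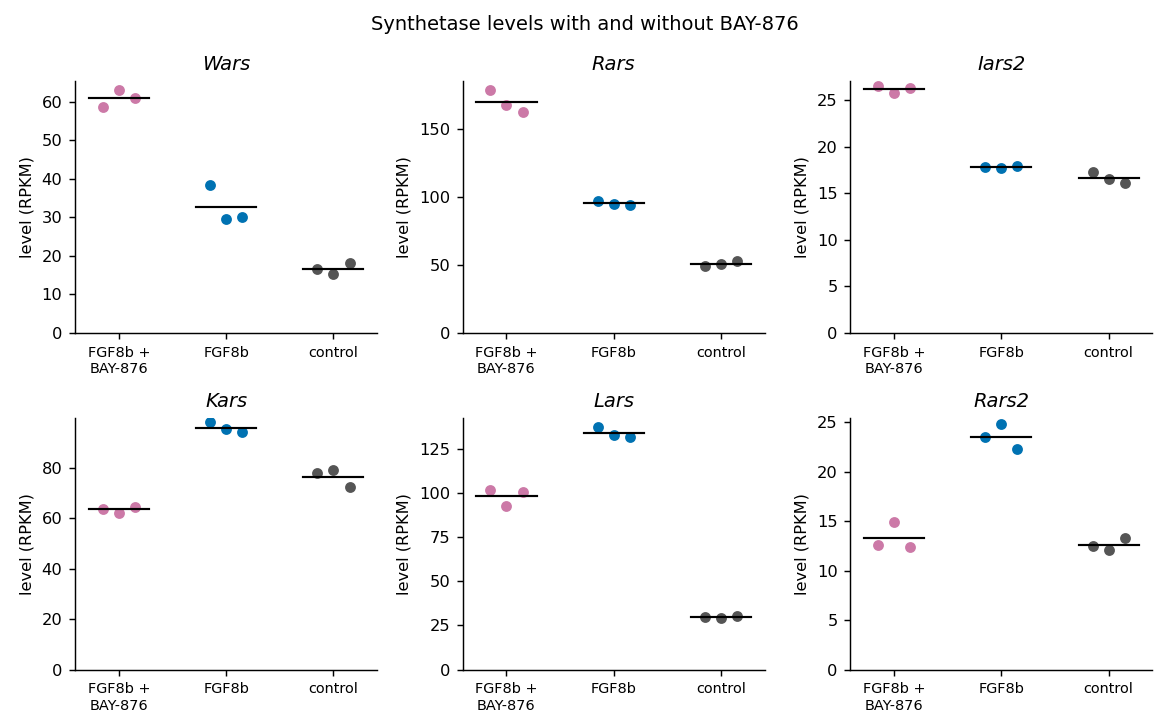
Level (RPKM, linear axes from 0) of Wars, Rars, Iars2, Kars, Lars and Rars2 in each library (points) of the FGF8b plus BAY-876, FGF8b and control groups, with the group mean as a line. Wars averaged 60.9 RPKM with the inhibitor, against 32.7 RPKM with FGF8b alone, and Rars2 averaged 13.3 RPKM, against 23.5 RPKM.

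Genes that work beside the synthetases were described from lists chosen with earlier results of these data known. Of 12 regulators of the amino acid stress response, 10 rose and 1 fell with FGF9, beside 38.7% and 27.0% of all tested genes. With FGF8b 10 rose and 1 fell, with a median log2 change of 1.91, beside 37.8% and 26.6% of all tested genes. The largest were Trib3, a pseudokinase that restrains ATF4 (61.9, 52.6 and 55.02 RPKM with FGF8b, against 2.96, 2.79 and 3.24 RPKM in control, change 4.03), and Chac1, which breaks down glutathione (25.2, 21.4 and 22.8 RPKM with FGF8b, against 1.25, 1.02 and 0.773 RPKM in control, change 3.97). Asns, the asparagine synthetase, changed by 3.19 ± 0.06 (adjusted p = 2.90e-15) and Ppp1r15a, which helps dephosphorylate eIF2, by 2.80 ± 0.11 (adjusted p = 3.05e-12). With FGF1, 6 of the 12 rose and 2 fell, with a median of 0.32, beside 19.3% and 15.1% of all tested genes. Asns then changed by 0.53 and Chac1 by 0.86, both past the threshold. With BAY-876 added to FGF8b, 1 rose and 5 fell, beside 22.5% and 34.8% of all tested genes, and Trib3 (-0.57) and Asns (-0.39) were among those that fell.

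Partners of charging had a lower median change than the cytosolic enzymes. Of 13 tested genes for complex scaffolds and charging partners (of 14 listed), 8 rose and 0 fell with FGF8b, with a median of 0.34, beside 37.8% that rose and 26.6% that fell of all tested genes. Eef1e1, a scaffold of the complex, had 37.1, 37.2 and 33.7 RPKM with FGF8b, against 12.2, 13.3 and 12.7 RPKM in control (1.46 ± 0.07, adjusted p = 5.41e-11), groups that did not overlap. The next were Aarsd1, an editor of mischarged alanine transfer RNA (0.71), the scaffold Aimp1 (0.69) and Sepsecs of selenocysteine synthesis (0.55), all past the threshold. Aimp1 fell with FGF1 (-0.21), and Sepsecs fell when BAY-876 was added to FGF8b (-0.71).

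Translation factors of both compartments were counted too. With FGF8b, 15 of 16 cytosolic factors rose and 0 fell, with a median of 0.56, and 5 of 9 mitochondrial factors rose and 1 fell, with a median of 0.25, beside 37.8% and 26.6% of all tested genes. The difference between the lists was not tested. Eif4ebp1 encodes an inhibitor of the cap-binding protein eIF4E and is a known ATF4 target. Its level was 170.1, 157 and 172 RPKM with FGF8b, against 53.2, 43.9 and 37.3 RPKM in control (1.90 ± 0.13, adjusted p = 2.51e-09), and these did not overlap. Eif2s2, the beta subunit of eIF2, changed by 1.19, Eif1, a factor of start codon choice, by 1.01 and Eif4e, the cap-binding protein, by 0.85. Among the mitochondrial factors, Tsfm, the exchange factor of elongation, rose by 0.90 and Gfm2, a ribosome recycling factor, fell by 0.61. Mrrf, which also recycles ribosomes, changed by 0.35, and Mtif2, an initiation factor, by 0.34, both past the threshold.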

How the data were processed

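RNA of 15 libraries, 3 per group, had been sequenced, and the submitters' processing notes name CASAVA and bcl2fastq. No aligner or genome build is given in the sources used. The deposited table holds 168326 transcript lines with decimal commas, of which 23172 carry no gene symbol. The authors' unit was not named. The deposited values were read as RPKM, since they step in whole reads per transcript length. With a length fitted to each line, whole reads were recovered for 13869 of 13869 tested genes. The limit was 0.02 of a read plus an allowance for rounding of the deposited values. The fitted length equalled the annotated one in 90.74% of 3476 Ensembl lines compared. Depth was 27.01 to 42.6 M reads per library, and this number limits the precision of low genes.

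The line with the highest mean stood for each symbol, and 13869 genes passed the minimum of 0.5 RPKM in 3 or more libraries. limma 3.58.1 (R 4.3.3, trend) was fitted on log2(RPKM + 0.5) over all 15 libraries, which share a spread with 10 residual degrees of freedom. The code was also run on simulated data with few changed genes and the same spread setting for every gene, unlike these data. That run checks the code and not the p-values here. P-values were adjusted by the Benjamini-Hochberg method within each comparison. Intervals are 95%. Other tools were Python 3.11.15, pandas 2.3.3, numpy 2.4.6, scipy 1.17.1 and matplotlib 3.10.9. The table of all genes gave each count over all genes, and only the synthetases and the companion lists are printed.

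The members and lists were chosen with earlier results of these data known. Genes described singly were, by rule, the 8 cytosolic and 5 mitochondrial genes with the largest change with FGF8b, the smallest change of each class, and the 3 largest changes of each class with FGF1 and with BAY-876. Others are named to complete a count or a pair. Rn18s was added after values were seen. Replicate numbers were not used to pair samples, because the labels do not say that they mark a shared culture. Of 30 same-number pairs of libraries 11 correlated above 0.1 in their deviations from the group means, within a range from -0.443 to 0.534. Different-number pairs were not compared, so these values cannot decide whether the numbers pair samples. Alternatives covered pseudocount, filter, scaling, transcript line, model, replicate block and each library left out. Protein sequences were not used here.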

Additional observations from a re-analysis of the deposited data

How the results depend on the processing

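Over 28 alternative settings, 127 values were recomputed: every synthetase past the threshold with FGF1, FGF8b, FGF9, BAY-876 or in the mean of FGF9 and FGF8b against FGF1, and those named by rule. Of the 3556 values this gave, 3474 kept direction and side of the threshold, 65 lost it, 16 gained it and 1 reversed: Cars2 with FGF8b against control was 0.0633 without control replicate 1, and it ran from -0.1544 to 0.0633 with each library left out. The count of risen cytosolic genes over all settings was 19 to 20 with FGF9 and 18 to 20 with FGF8b. Mitochondrial genes lower with FGF1 against control numbered 4 under trimmed-mean scaling. Those lower with FGF8b against control numbered 1 with Lars2 left out, a setting chosen after seeing the data. Those lower with BAY-876 added to FGF8b numbered 2 over summed transcript lines and 2 when only the groups compared were fitted. Synthetases lower in the mean of FGF9 and FGF8b against FGF1 numbered 1 under trimmed-mean scaling and 1 when only the groups compared were fitted. The cause was not tested. With each library left out in turn, mitochondrial genes higher with FGF1 numbered 0 to 1, those lower with FGF1 1 to 3, those lower with FGF8b 1 to 2, and those lower with BAY-876 added 1 to 2. Cytosolic genes higher with FGF1 then numbered 6 to 11. With the replicate number as a block, 11 cytosolic genes rose with FGF1 in place of 9, and 12 in place of 11 fell with BAY-876 added. Whether the replicate numbers pair the samples is not in the labels. Mitochondrial genes with as few as 45 reads in a library have the widest errors.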
